A study of Mus musculus with 22 samples.

Results

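The SWI/SNF-related BAF complex swaps several of its subunits when neural progenitors become neurons, and the 10 genes for these alternative subunits were followed here in cerebellar granule cells of postnatal day 7 mice. The genes are Actl6a, Phf10, Dpf2 and Ss18, whose products are typical of the progenitor complex, Actl6b, Dpf1, Dpf3 and Ss18l1, whose products replace them in neurons, and the alternative ATPases Smarca4 and Smarca2. Every probe set of the array whose gene symbol, current or older, was one of these and no other was taken, which gave 21 of the 45101 probe sets and 10 of the 18194 genes that have a probe set with 1 symbol. Actl6a and Ss18 had 3 probe sets each, Actl6b had 1 and the other genes had 2 each.

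Messenger RNA was measured on Affymetrix mouse arrays in 22 samples that form 3 experiments with their own controls. The first experiment set 4 samples of a Chd7 mutant beside 4 controls. The study gives the mutant as Atoh1-Cre::Chd7 f/f, in which Cre acts in the Atoh1 lineage of granule cell progenitors. It gives the controls as Chd7 f/f with no Cre named, so both carry the floxed allele. Both the study and the labels call these controls wild type. The second compared 4 cultures treated with 10 uM ICRF-193, an inhibitor of DNA topoisomerase II, for 12 h with 4 cultures treated with its solvent DMSO for the same time, and the third compared 3 cultures with Smo2 with 3 control cultures without it. The study describes an array comparison of granule cells kept proliferating with SAG, an agonist of Smoothened, and cells left to differentiate without it, while the labels name the agent Smo2 and give no dose or time for it. They do not state that Smo2 is SAG, so the name Smo2 is kept here. All samples are labelled as cerebellum of strain C56Bl6/J and as biological replicates, the cell type is given as granule neuron progenitors although the titles name granule neurons, and the sex of the pups was not distinguished.

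BAF is an ATP-driven machine that moves and evicts nucleosomes, and alternative subunits replace one another within a single complex, not necessarily within a cell. In dividing neural progenitors the complex holds the actin-related protein Actl6a, a PHD finger protein of the Phf10 or Dpf2 type and Ss18, and on cell cycle exit these give way to Actl6b, Dpf1 or Dpf3 and Ss18l1, also called CREST, which are tied to dendrite growth. Granule cell progenitors of the early postnatal cerebellum divide under Sonic hedgehog and then become postmitotic neurons, which makes them a common system for following the exchange.

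Values are log2 of the deposited intensity after quantile normalization, so that 1 unit is a doubling, and a level is comparable between arrays for the same probe set but not between probe sets. Of the 21 probe sets, 19 had a mean at or above 6.44, the median over the array. Ss18 probe set 1436257_at lay at 6.34, and Ss18l1 probe set 1447700_x_at lay at the floor of 4 on all but 2 arrays, so it carries no information on changes. In bulk RNA fewer cells of a type and less RNA per cell cannot be told apart.

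Arrays of one group correlated at 0.97 to 0.99 over the brighter probe sets, while arrays with Smo2 correlated at 0.86 to 0.91 with those of the other groups. The targeted gene Chd7 was lower in the mutant on 1437745_at, at 9.47 ± 0.54 against 11.50 ± 0.23 (SD, n = 4 each; limma adjusted p = 0.0134), but its other probe set 1448026_at gave 11.65 ± 0.25 and 11.89 ± 0.13 (adjusted p = 0.435). The mean of 3 Y-linked genes ranged from 8.38 to 9.03 in the Chd7 controls and from 4.00 to 6.95 in the mutants, so the sexes were not balanced between these groups. It lay between 8.33 and 9.60 in the other 4 groups.

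RefSeq start regions on GRCm38.p6 were available here for 9 of the 10 genes, all but Ss18. They run from 250 bases before to 50 bases after an annotated start of the gene. The 4 shown belong to the subunit that differed most between cultures with and without Smo2 in the progenitor group and to the 3 neuronal subunits that differed. Capitals mark CCAAT or its reverse ATTGG, the core bound by the factor NF-Y, which was chosen after the sequences had been seen.
Actl6a, chr3:32708296-32708595, plus strand: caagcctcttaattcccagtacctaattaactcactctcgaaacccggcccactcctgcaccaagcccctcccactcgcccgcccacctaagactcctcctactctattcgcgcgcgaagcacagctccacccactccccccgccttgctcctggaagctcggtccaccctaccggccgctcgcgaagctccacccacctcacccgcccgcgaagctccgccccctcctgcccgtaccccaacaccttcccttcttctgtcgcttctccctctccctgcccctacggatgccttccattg
Actl6b, chr5:137553296-137553595, plus strand: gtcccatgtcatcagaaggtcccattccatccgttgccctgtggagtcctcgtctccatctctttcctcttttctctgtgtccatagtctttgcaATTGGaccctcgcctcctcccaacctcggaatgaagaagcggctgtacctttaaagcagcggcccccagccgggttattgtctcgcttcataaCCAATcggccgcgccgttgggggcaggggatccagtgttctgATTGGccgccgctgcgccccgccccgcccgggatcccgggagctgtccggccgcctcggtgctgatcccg
Dpf3, chr12:83487687-83487986, minus strand: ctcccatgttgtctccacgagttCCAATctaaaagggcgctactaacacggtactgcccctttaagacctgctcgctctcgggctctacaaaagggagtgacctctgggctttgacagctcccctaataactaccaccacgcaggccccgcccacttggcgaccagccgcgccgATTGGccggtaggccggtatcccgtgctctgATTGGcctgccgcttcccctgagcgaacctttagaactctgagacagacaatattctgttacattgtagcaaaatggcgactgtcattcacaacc
Ss18l1, chr2:180042233-180042532, plus strand: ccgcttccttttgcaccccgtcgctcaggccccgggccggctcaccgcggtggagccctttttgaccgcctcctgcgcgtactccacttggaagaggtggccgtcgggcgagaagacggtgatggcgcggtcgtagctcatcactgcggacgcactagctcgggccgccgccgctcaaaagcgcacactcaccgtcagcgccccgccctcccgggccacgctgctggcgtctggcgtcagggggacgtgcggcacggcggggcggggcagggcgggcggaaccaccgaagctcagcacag
The Actl6b window holds 3 such cores, which begin 155, 62 and 20 bases before the start. The annotated range of Actl6b begins at base 137553361, before these 3 cores, so the start used is not its first annotated base. The ranges of Dpf1, Smarca2 and Smarca4 also begin before the start used. The Dpf3 window holds 3 cores too, at 227, 76 and 45 bases. Dpf1 has 2 and Dpf2 has 1, and Actl6a, Phf10, Ss18l1, Smarca2 and Smarca4 have 0 in these windows. Among all 32851 start regions of this length, 37.4% hold at least 1 core, 11.7% at least 2 and 3.37% at least 3. The E2F forms TTTCCCGC and TTTGGCGC and the part TTCAGCACC of the RE1 element, each searched on both strands, are in none of the 9 windows, and 1.07%, 0.514% and 0.371% of all start regions hold them. These letters are a description of the windows and not evidence of binding.

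The Smo2 experiment asks how the subunits differ between granule cells cultured with and without Smo2. With Smo2, Actl6a, Phf10 and Ss18 of the progenitor complex were higher, and Actl6b, Ss18l1, Dpf3 and the ATPase Smarca2 were lower, while Dpf2, Dpf1 and Smarca4 did not pass the test. Counted by probe set, 10 of 21 were called by limma at an adjusted p under 0.05, 5 higher and 5 lower, beside 30.1% of all probe sets, 14.1% higher and 16.1% lower. Counted by the brightest probe set of each gene, 7 of the 10 genes were called, 3 higher and 4 lower, beside 38.5% of all genes, 17.6% higher and 20.8% lower. The arrays with and without Smo2 did not overlap for 12 of the 21 probe sets, beside 41.3% of all. Since so much of the array differed, these counts are read against those shares, and the values below are given for each gene. The median change was 0.72 for the 4 progenitor subunits and -1.09 for the 4 neuronal subunits, beside -0.03 for all genes.

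**Figure D1:**
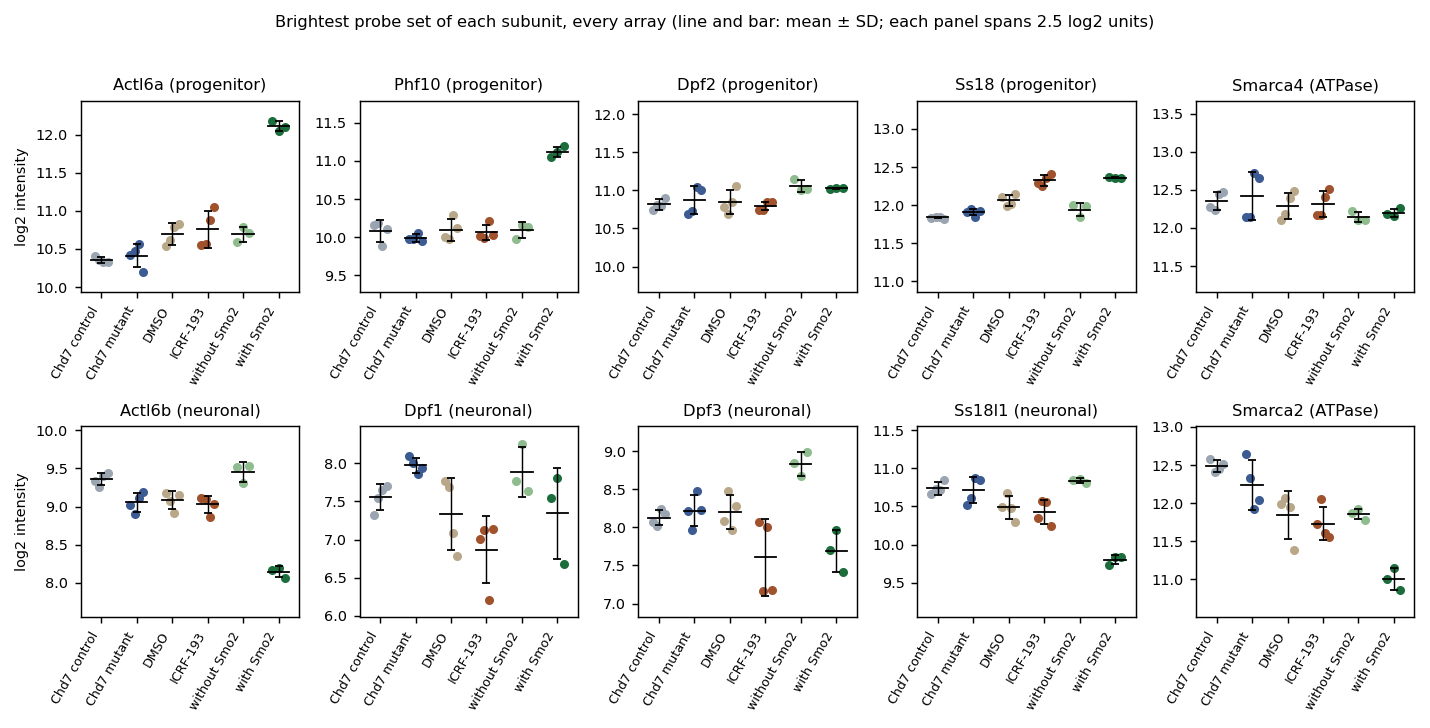
Log2 intensity of the brightest probe set of each of the 10 genes on every array (points) in the 6 groups on the horizontal axis, with the group mean (line) and SD (bar); each panel spans the same range of log2 units, set around its own data. The 3 arrays with Smo2 stand above all others for Actl6a and Phf10 and below all others for Actl6b, Ss18l1 and Smarca2.

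Actl6a, the actin-related subunit of the progenitor complex, had the largest change among the 10 genes. On 1416569_at the arrays without Smo2 read 10.59, 10.78 and 10.71, and those with Smo2 read 12.18, 12.05 and 12.10. The groups did not overlap, and the level with Smo2 was 2.67-fold higher, a log2 difference of 1.42 ± 0.06 (SE, n = 3 each; adjusted p = 0.000132). The probe set 1456730_x_at gave nearly the same difference, 1.33 ± 0.09 (adjusted p = 0.000449). A further probe set, 1429883_at, read 9.57 ± 0.04 without and 9.58 ± 0.09 with Smo2 (SD, n = 3 each), a difference of 0.01 with a 95% interval of -0.12 to 0.14, so the probe sets of Actl6a disagree. Which transcripts they detect was not given in the sources used here.

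Phf10, a double PHD finger subunit that recognises histone tails, followed Actl6a. Its brighter probe set 1449085_at read 9.97, 10.16 and 10.14 without Smo2 and 11.05, 11.11 and 11.19 with it. The groups were fully apart, with a difference of 1.03 ± 0.07 or 2.04-fold (SE, n = 3 each; adjusted p = 0.000395). On 1435774_at the arrays read 8.72, 8.36 and 8.71 without and 8.82, 8.75 and 8.81 with Smo2, a difference of 0.20 with an interval of -0.09 to 0.48 that was not called (adjusted p = 0.276). The 2 probe sets hardly moved together over the 22 arrays (Pearson r = 0.03).

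Ss18, the progenitor counterpart of CREST, was also higher with Smo2. On 1419360_a_at it read 12.00, 11.84 and 11.99 without and 12.37, 12.36 and 12.35 with Smo2. This difference of 0.42 ± 0.05, or 1.34-fold, was the smallest of the 7 genes called (SE, n = 3 each; adjusted p = 0.0024). The probe set 1419361_at gave a larger one of 0.91 ± 0.11, with arrays at 10.36, 10.21 and 10.13 without and 11.33, 11.14 and 10.97 with Smo2 (adjusted p = 0.00319). The dim 1436257_at differed by -0.13 with an interval of -0.93 to 0.67 (adjusted p = 0.838).

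Dpf2, the other PHD finger protein of the progenitor set, is found in most cell types and behaved differently from Phf10. On 1416534_at the arrays read 11.15, 11.01 and 11.02 without and 11.02, 11.03 and 11.03 with Smo2. The groups overlapped, and the interval of the difference, -0.15 to 0.08, leaves room only for small changes on this scale (adjusted p = 0.622). Its dimmer probe set 1429903_at differed by -0.28, with an interval of -0.70 to 0.13 (adjusted p = 0.285).

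Among the neuronal subunits, Actl6b, the actin-related protein that takes the place of Actl6a, was lower with Smo2. Its only probe set 1422564_at read 9.52, 9.30 and 9.53 without and 8.17, 8.20 and 8.07 with Smo2. The groups were apart by more than 1 unit, and the level was 2.47-fold lower with Smo2, a difference of -1.31 ± 0.08 (SE, n = 3 each; adjusted p = 0.000324). The pair of actin-related subunits thus moved in opposite directions by similar amounts, 1.42 and -1.31.

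Ss18l1, a calcium-responsive coactivator needed for dendrite growth, showed the smallest adjusted p of all members. On 1436911_at it read 10.85, 10.86 and 10.81 without and 9.73, 9.84 and 9.84 with Smo2, a difference of -1.04 ± 0.04 or 2.05-fold lower (SE, n = 3 each; adjusted p = 8.47e-05). The pair Ss18 and Ss18l1 therefore also moved in opposite directions.

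Dpf3 and Dpf1 are the PHD finger subunits of the neuronal complex, and both were measured with wider spread. Dpf3 on 1450162_at read 8.85, 8.67 and 8.98 without and 7.70, 7.96 and 7.41 with Smo2, a difference of -1.14 ± 0.17 or 2.21-fold lower (SE, n = 3 each; adjusted p = 0.00636). Its other probe set 1441659_at read 7.80, 7.17 and 7.67 without and 6.34, 7.18 and 6.73 with Smo2, and this difference of -0.80 was not called (adjusted p = 0.112). Dpf1 on 1420530_at read 7.76, 8.25 and 7.63 without and 7.54, 7.81 and 6.68 with Smo2. The groups overlapped for Dpf1, and the difference of -0.54 had an interval of -1.46 to 0.38, which includes both no change and changes as large as that of Dpf3 (adjusted p = 0.364). The dimmer 1420529_at gave -0.37 (adjusted p = 0.429).

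The ATPases Smarca4, also called BRG1, and Smarca2, also called BRM, are the motors of the complex. Smarca4 on 1426804_at read 12.22, 12.11 and 12.11 without and 12.18, 12.16 and 12.26 with Smo2, and its difference of 0.05 had an interval of -0.06 to 0.17 (adjusted p = 0.475). On 1426805_at it differed by 0.25, with an interval of -0.05 to 0.54 (adjusted p = 0.195), and with the arrays centred on their medians instead the brighter probe set differed by 0.30 and was called (adjusted p = 0.0112). Smarca2 on 1430526_a_at read 11.87, 11.92 and 11.78 without and 11.01, 11.15 and 10.87 with Smo2. Its groups did not overlap, and the level was 1.80-fold lower, a difference of -0.85 ± 0.08 (SE, n = 3 each; adjusted p = 0.00146). The other probe set 1452333_at gave -1.05 ± 0.24 (adjusted p = 0.0263).

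**Figure D2:**
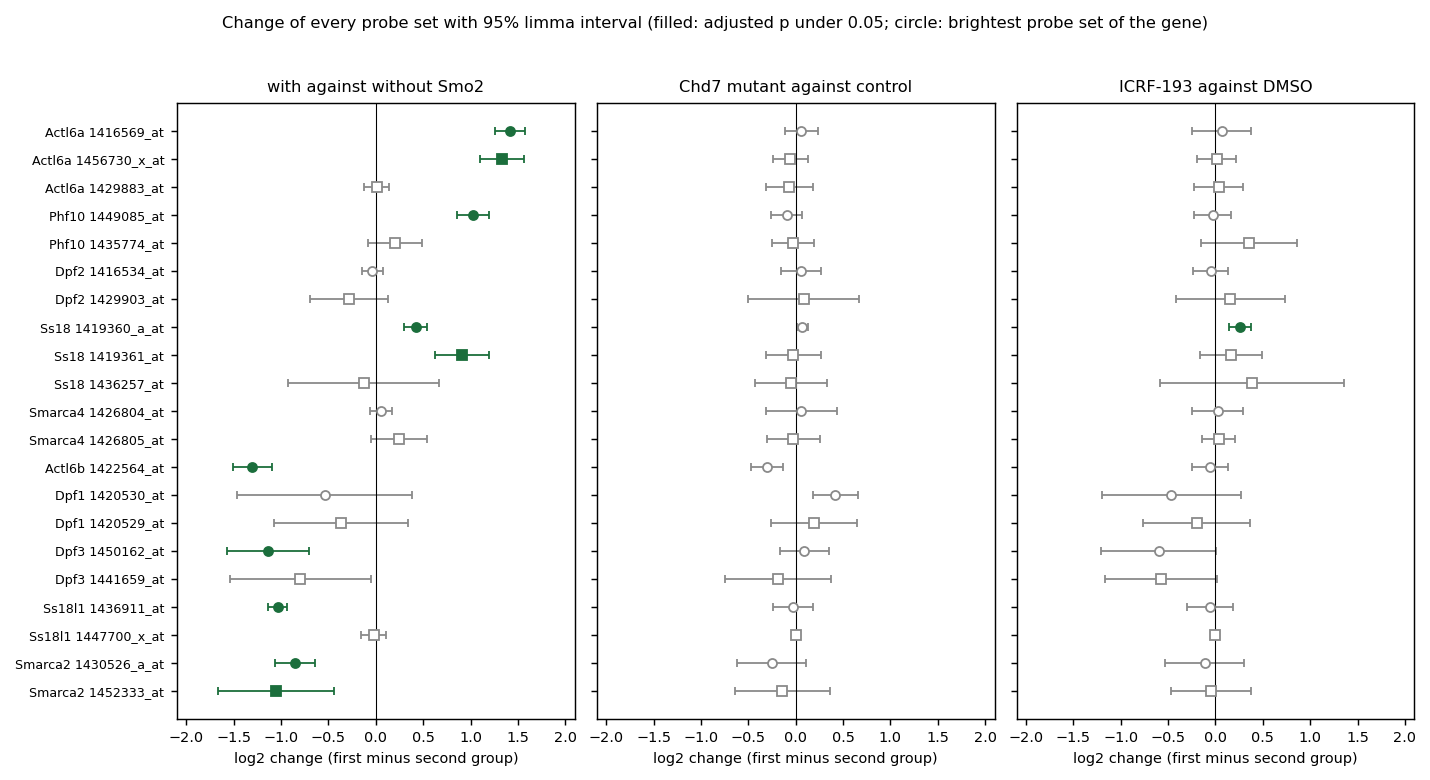
Log2 change (horizontal axis) of each of the 21 probe sets (vertical axis) in the 3 comparisons, with 95% limma intervals; filled symbols passed an adjusted p under 0.05 and circles are the brightest probe set of a gene. With Smo2 10 probe sets passed, and 0 and 1 passed in the Chd7 and ICRF-193 comparisons, all in fits without a block.

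Markers of the cell states moved in the same comparison. All 12 measured markers of proliferating progenitors were higher with Smo2 (of 13 listed; Ccnb1 was not measured), with a median change of 2.96 and a summed linear intensity of 93400 to 94400 against 16700 to 17400. Of 15 markers of postmitotic granule neurons 13 were lower and 0 higher, with a median of -0.86 and sums of 83600 to 89200 against 146000 to 148000. Neurod1, a granule lineage factor, stayed bright in all 6 groups (means 14.54 to 14.96), and the mature marker Gabra6 was dim in all of them (5.39 to 7.04).

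Markers of other cerebellar cells moved as well. Of 5 measured GABAergic and Purkinje markers 4 were lower and 0 higher with Smo2, with sums of 1410 to 1590 against 3780 to 3880. Of 8 astrocyte and Bergmann glia markers 2 were higher and 6 lower (4690 to 5510 against 7490 to 8700), and of 8 microglia markers 4 were lower (491 to 768 against 1090 to 1530), 4 of the 8 being below the median level of the array. Of 7 oligodendrocyte lineage markers 2 were higher and 2 lower (7890 to 8020 against 8970 to 9470), and of 8 fibroblast, pericyte and endothelial markers 0 were called (459 to 620 against 395 to 444). The part of these cells in the subunit differences was not tested.

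The Chd7 experiment asks whether the exchange differs in granule cells that lack the remodeller Chd7. By limma without a block 0 of the 21 probe sets were called, beside 3.13% of all probe sets. With the replicate number or the set of replicates as a block Actl6b passed, as given below. At an unadjusted p under 0.05 there were 3 of 21, beside 16.1% of all, and the methods' t-test gave 3 at that level, beside 14.3%, and 0 after Benjamini-Hochberg adjustment. The groups did not overlap for 3 of the 21, beside 10.7% of all.

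Those 3 were Actl6b, Dpf1 and Ss18, which are named after their values were seen. Actl6b read 9.34, 9.26, 9.40 and 9.44 in the controls and 9.02, 8.90, 9.12 and 9.19 in the mutants. Every mutant array lay below every control array, with a difference of -0.30 ± 0.07 (SE, n = 4 each; adjusted p = 0.081). With the replicate number as a block the same difference passed (adjusted p = 0.0401), as it did with the set of replicates, 1 and 2 against 3 and 4 (adjusted p = 0.0114). It was -0.34 within replicates 1 and 2 and -0.26 within replicates 3 and 4. Dpf1 on 1420530_at read 7.33, 7.54, 7.65 and 7.71 in the controls and 8.09, 8.01, 7.86 and 7.94 in the mutants. It was thus higher on every mutant array, by 0.42 ± 0.10 (adjusted p = 0.0828). With the replicate number as a block its adjusted p was 0.205, and with the set of replicates 0.0727. Its other probe set overlapped between the groups (0.19, adjusted p = 0.678). Ss18 on 1419360_a_at lay between 11.82 and 11.85 in the controls and between 11.85 and 11.95 in the mutants, a difference of 0.07 with an interval of 0.01 to 0.13 (adjusted p = 0.223).

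The intervals of the other brightest probe sets all included 0. They were -0.12 to 0.23 for Actl6a, -0.26 to 0.07 for Phf10 and -0.16 to 0.27 for Dpf2. For Ss18l1 the interval was -0.23 to 0.19, and for Dpf3 it was -0.17 to 0.35. These limits lie well inside the differences seen with Smo2 for Actl6a, Phf10, Ss18l1 and Dpf3.

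The ATPase Smarca4 showed a split by replicate number. Smarca4 on 1426804_at read 12.28, 12.23, 12.45 and 12.47 in the controls and 12.14, 12.15, 12.72 and 12.66 in the mutants, so replicates 1 and 2 lay below replicates 3 and 4 in both groups, as they did in the DMSO and ICRF-193 groups. Smarca2 on 1430526_a_at read 12.58, 12.41, 12.45 and 12.52 in the controls and 12.65, 12.34, 11.92 and 12.05 in the mutants. The mutant replicates 3 and 4 were the low ones, and the change of Smarca2 was -0.01 within replicates 1 and 2 and -0.50 within replicates 3 and 4, with -0.25 over all (interval -0.62 to 0.11, adjusted p = 0.499). The labels do not say what the numbers stand for beyond biological replicates.

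In the mutant, 1 of 12 progenitor markers was higher (sums of 17600 to 28700 against 11900 to 17100) and 2 of 15 postmitotic markers were lower (124000 to 129000 against 145000 to 150000). Of 7 oligodendrocyte lineage markers 0 were called, although the sums did not overlap (13800 to 17600 against 4560 to 10900). The same held for 8 fibroblast, pericyte and endothelial markers (4340 to 7180 against 2190 to 3680), and 1 of 8 astrocyte markers was higher (8960 to 34700 against 6890 to 17500). Microglia sums were 797 to 3080 against 2300 to 4230, and GABAergic and Purkinje sums 4670 to 5100 against 4260 to 4850. With the replicate number as a block 4 of the 12 progenitor markers were higher, with Top2a (0.68), Ccnd2 (0.99) and Cdk1 (0.76) added to Ccnd1, and 1 of the 15 postmitotic markers was lower, with Nefl lost. The block also called the oligodendrocyte precursor marker Pdgfra (1.02), S100b (1.03) beside the astrocyte marker Gja1, and the fibroblast markers Col1a2 (0.87) and Dcn (adjusted p = 0.0341), all higher in the mutant. The part of these markers, and of the Y-linked difference, in the values of Actl6b and Dpf1 was not tested.

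The ICRF-193 experiment asks whether the subunits differ when topoisomerase II is inhibited. By limma 1 of the 21 probe sets was called, beside 2.22% of all, and 1 of 21 did not overlap between the groups, beside 7.57% of all. The called probe set was Ss18 1419360_a_at, which read 12.11, 11.99, 12.02 and 12.14 with DMSO and 12.29, 12.25, 12.35 and 12.41 with ICRF-193. All treated arrays lay above all DMSO arrays, and the difference was 0.26 ± 0.05 or 1.20-fold (SE, n = 4 each; adjusted p = 0.0499). With the replicate number as a block the adjusted p was 0.0574, and with the set of replicates, 1 and 2 against 3 and 4, it was 0.0325. The call thus sits at the threshold and depends on the block, and Ss18 1419361_at gave 0.16 (adjusted p = 0.754).

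Dpf3 and Dpf1 were lower on some treated arrays without passing. Dpf3 on 1450162_at read 8.09, 8.48, 7.97 and 8.28 with DMSO and 8.07, 7.16, 8.01 and 7.18 with ICRF-193. On this probe set replicates 2 and 4 were low, and the difference of -0.60 had an interval of -1.20 to 0.01 (adjusted p = 0.423). On 1441659_at the DMSO arrays read 8.15, 8.05, 7.33 and 7.97 and the treated arrays 7.44, 7.43, 7.57 and 6.75, a difference of -0.58 with an interval of -1.16 to 0.01 (adjusted p = 0.424). There treated replicates 1, 2 and 4 lay below DMSO arrays of the same number and replicate 3 did not. The same held on 1450162_at, although its replicate 1 was barely lower (8.07 against 8.09). Dpf1 on 1420530_at read 7.77, 7.69, 7.09 and 6.79 with DMSO and 7.01, 7.12, 6.21 and 7.13 with ICRF-193, a difference of -0.47 with an interval of -1.20 to 0.27 (adjusted p = 0.661).

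For the other subunits the treated and DMSO arrays overlapped. Actl6a differed by 0.07 (interval -0.24 to 0.37), Actl6b by -0.06 (-0.24 to 0.13) and Ss18l1 by -0.06 (-0.30 to 0.18). Smarca4 differed by 0.02 (-0.25 to 0.29), and Smarca2 by -0.11 (-0.53 to 0.31). Over the same arrays 4 of 15 postmitotic markers were lower (sums of 115000 to 120000 against 137000 to 142000), 1 of 12 progenitor markers was higher, and of the markers of other cells only Gad1 was called, at -0.42. With the replicate number as a block 5 of the 15 postmitotic markers were lower, with Cntn2 (-0.36) added. Of the 12 progenitor markers 2 were then higher and 1 lower, with Mki67 (0.53) and Ccnd2 (-0.51) added to Mycn. Among the markers of other cells the block lost Gad1 and called Mbp, at -0.62.

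The effects of the Chd7 mutation and of ICRF-193 were set against each other in a fit of all 6 groups, in which 0 of 21 probe sets differed at an adjusted p under 0.05, beside 3.15% of all. The nearest was Ss18, with 0.07 in the mutant and 0.26 with ICRF-193 (difference -0.19, interval -0.31 to -0.07, adjusted p = 0.09). Dpf1, with 0.42 and -0.47, differed by 0.89 (interval 0.11 to 1.66, adjusted p = 0.268), and Dpf3, with 0.09 and -0.60, by 0.69 (interval 0.12 to 1.26, adjusted p = 0.236). Actl6b, with -0.30 and -0.06, differed by -0.24 (interval -0.47 to -0.01, adjusted p = 0.32).

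Across all 6 groups the order of the levels on the brightest probe set differed between genes, taking neighbours as separate only where their means differed by more than the sum of their SDs. Actl6a and Phf10 were highest with Smo2. For Phf10 the other 5 groups, from 9.99 to 10.09, did not separate, while for Actl6a both Chd7 groups (10.35 and 10.41) lay below the cultures without Smo2, with DMSO and with ICRF-193 (10.69 to 10.76). Ss18 was high both with Smo2 and with ICRF-193 (12.36 and 12.33), which did not separate from each other.

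The neuronal genes Actl6b and Ss18l1 and the ATPase Smarca2 had the reverse order at its lower end. Actl6b, Ss18l1 and Smarca2 were lowest with Smo2, each separated from the next group. Actl6b was highest without Smo2 and in the Chd7 controls (9.45 and 9.36), and the DMSO, mutant and ICRF-193 groups (9.03 to 9.08) did not separate. Dpf3 was highest without Smo2 (8.83), and its lowest groups, with Smo2 and with ICRF-193 (7.69 and 7.61), did not separate. For Dpf1, Dpf2 and Smarca4 no neighbouring groups separated on the brightest probe set. The dimmer probe sets ordered some groups differently. On Smarca4 1426805_at both Smo2 groups (9.69 without and 9.94 with) lay below and separated from the other 4, the nearest being the Chd7 mutant at 10.48. On Ss18 1419361_at the cultures without Smo2 (10.23) lay above the ICRF-193 group (9.81), the reverse of their order on the brightest probe set, and both Chd7 groups (9.10 and 9.13) were lowest. On Smarca2 1452333_at the cultures without Smo2 (8.80) separated from the ICRF-193 group (9.53) above them and from the cultures with Smo2 (7.74) below. The 3 experiments were separate, so an order across them can also reflect how each was done, which was not tested.

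**Figure D3:**
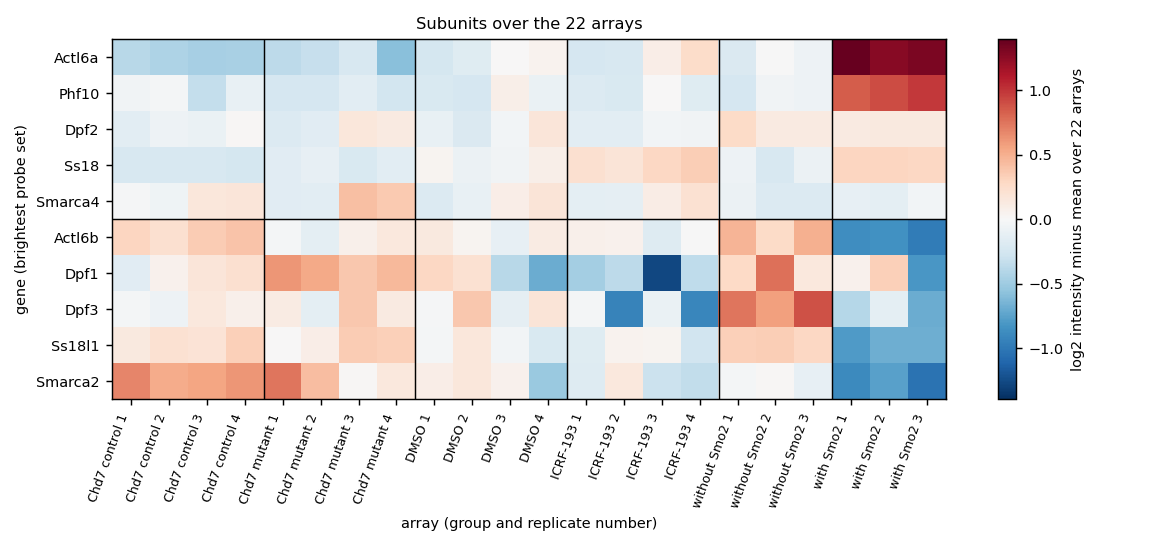
Log2 intensity of the brightest probe set of each gene (vertical axis) minus its mean over the 22 arrays (colour, log2 units) for every array (horizontal axis). Lines separate the groups, and the progenitor set with Smarca4 from the neuronal set with Smarca2. The 3 arrays with Smo2 are red for Actl6a and Phf10 and blue for Actl6b, Ss18l1 and Smarca2. For Actl6a, Phf10, Actl6b and Ss18l1 the other arrays vary less. For Smarca2 the other arrays also vary widely, from 11.38 in DMSO replicate 4 to 12.65 in Chd7 mutant replicate 1.

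Over the 22 arrays Actl6a correlated with Actl6b at -0.89 and with Smarca2 at -0.87, and Phf10 with Actl6b at -0.87. Without the 6 arrays of the Smo2 experiment these values were -0.61, -0.78 and -0.20 over 16 arrays. The points share arrays, groups and scaling, so the correlations are a description, and that of Phf10 with Actl6b rests on the arrays of the Smo2 experiment.

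The genes whose pattern over the 22 arrays was most like that of a member were searched among 10762 other genes at or above the median level. For Actl6a they were Wdhd1, Lbr and Plk1 (r of 0.97 to 0.98), and for Phf10 Mcm10, Haus6 and Exosc2 (0.97). Wdhd1 and Mcm10 are DNA replication factors and Plk1 is a mitotic kinase. Without the Smo2 experiment r was 0.76 to 0.83 for the genes like Actl6a and 0.59 to 0.64 for those like Phf10.

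For Actl6b the nearest genes were Wdr13, Amer3 and Cacna1a (0.95 to 0.96), for Ss18l1 Kcnk2, Tsc22d1 and Stradb (0.94 to 0.95), and for Smarca2 Cacnb4, Arhgap20 and Oxct1 (0.97). Cacna1a and Cacnb4 are subunits of voltage-gated calcium channels and Kcnk2 is a potassium channel. The likeness of Smarca2 held without the Smo2 experiment (0.93 to 0.95), as did that of Ss18 to Glrx5, Ddx20 and Twistnb (0.92 to 0.94 over all arrays, 0.90 to 0.93 without). Without it r fell to between 0.74 and 0.81 for Actl6b and to between 0.75 and 0.86 for Ss18l1. Dpf2, Dpf1, Dpf3 and Smarca4 had nearest genes at 0.87, 0.81, 0.84 and 0.87.

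The remaining subunits of BAF and of the related PBAF and ncBAF complexes were read by the brightest probe set of each of 20 genes. With Smo2, 6 were higher and 4 lower, so 10 of 20 were called beside 38.5% of all genes, with a median change of -0.05. Other probe sets at or above the median level were called for Smarce1 and Bicral, whose brightest ones were not. Bcl7c is counted as higher by its brightest probe set (0.24), but of its 4 probe sets at that level 2 were called lower. The 4 with the largest changes all rose. Bcl11b, a zinc finger subunit and transcription factor, went from 4.38 ± 0.57 without to 9.59 ± 0.09 with Smo2 (SD, n = 3 each; adjusted p = 0.000317), and as 1 of the 3 arrays without Smo2 lay at the floor the size of this change depends on the floor. Smarcc1, a scaffold subunit, rose by 1.29 ± 0.09 (adjusted p = 0.000572), the zinc finger subunit Bcl11a by 1.13 ± 0.22 (adjusted p = 0.0175) and the core subunit Smarcd2 by 1.01 ± 0.08 (SE, n = 3 each; adjusted p = 0.000711). Smarcc2, the alternative to Smarcc1, is named after its value was seen and fell by 0.60 (adjusted p = 0.00101), so this pair of scaffold subunits also moved apart.

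**Figure D4:**
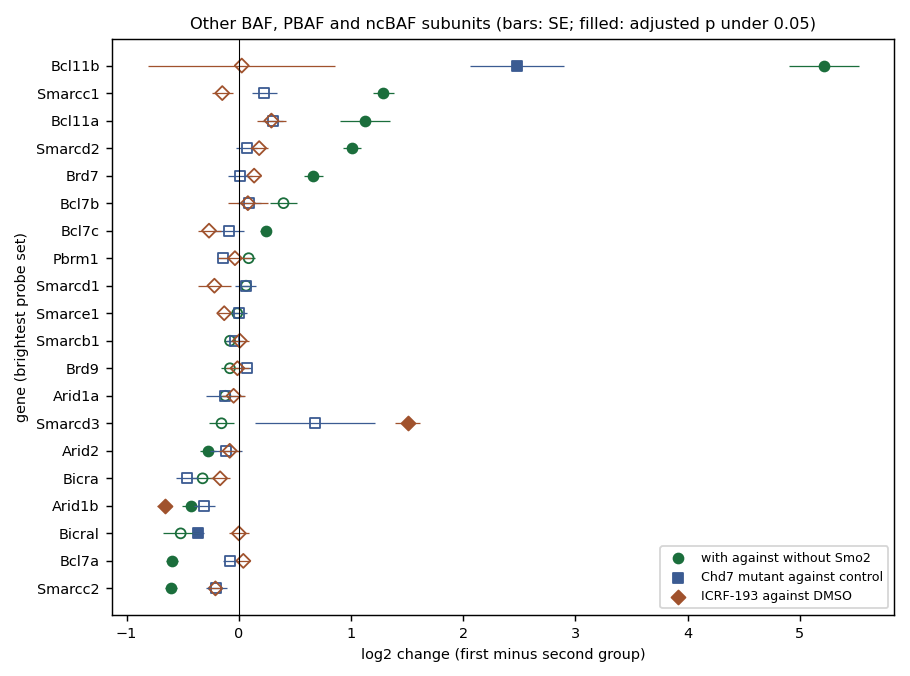
Log2 change (horizontal axis) of the other 20 subunit genes (vertical axis, ordered by the change with Smo2) in the 3 comparisons, with bars for the SE; filled symbols passed an adjusted p under 0.05. Bcl11b lies far to the right with Smo2 and in the mutant, and Smarcd3 stands apart with ICRF-193 at 1.51.

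In the Chd7 mutant 1 of these 20 was higher and 1 lower, beside 4.18% of all genes called. Bcl11b went from 4.83 ± 0.82 to 7.31 ± 0.33 (SD, n = 4 each; adjusted p = 0.0299, and 0.0956 with the replicate number as a block), with 1 control array at the floor. Bicral, a subunit of ncBAF, fell by 0.36 (adjusted p = 0.0202, and 0.0723 with the block). With the block 1 of the 20 was called, Bicra, also of ncBAF, at -0.46 (adjusted p = 0.0356, and 0.0581 without it). With ICRF-193 1 was higher and 1 lower, beside 2.97% of all genes called. Smarcd3, a core subunit, rose from 9.24 ± 0.23 to 10.74 ± 0.06 (SD, n = 4 each; adjusted p = 0.00101, and 0.0143 with the block), and Arid1b, a DNA-binding subunit, fell by 0.66 (adjusted p = 0.00288, and 0.0239 with the block). The block added Smarcc2, at -0.21 (adjusted p = 0.0414, and 0.196 without it). The brightest probe set of Bcl7c was called in neither experiment. A further probe set of it was called lower in the mutant, and a further probe set was called higher with ICRF-193.

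Genes known to regulate the exchange and the motors of other remodellers were read in the same way. Of Rest, Rcor1, Ptbp1 and Ptbp2, the splicing repressor Ptbp1 rose with Smo2 by 1.93 ± 0.08 on its brightest probe set (SE, n = 3 each; adjusted p = 0.000102). It was the only 1 called of the 3 Ptbp1 probe sets at or above the median level. Its neural paralogue Ptbp2 fell by 0.22 (adjusted p = 0.00233). Rest, a repressor of neuronal genes, read 5.83 ± 0.37 without and 6.68 ± 0.37 with Smo2 (SD, n = 3 each), and this difference was not called (adjusted p = 0.105). By the brightest probe set 0 of the 4 genes were called in the Chd7 or ICRF-193 experiments. In the Chd7 mutant the brightest probe set of Rest gave 0.49 (adjusted p = 0.159), and its next probe set 1428227_at was called, at 7.67 against 7.12, a difference of 0.55 ± 0.11 (SE, n = 4 each; adjusted p = 0.0493).

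Of 7 ATPases of the ISWI, NuRD and INO80 families, 1 was higher and 2 lower with Smo2, a share near the 38.5% of all genes called, and 0 were called in the other experiments. Smarca5 rose by 1.08 ± 0.06 and its alternative Smarca1 fell by 1.56 ± 0.05 (SE, n = 3 each; adjusted p = 0.000274 and 5.31e-05). Chd3 of the NuRD complex fell by 1.29 ± 0.13 (adjusted p = 0.00183).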

How the data were processed

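Affymetrix Mouse Genome 430 2.0 arrays of 22 granule cell samples were read, 4 per group in the Chd7 and ICRF-193 experiments and 3 per group in the Smo2 experiment. For each of 45101 probe sets the authors deposited a linear intensity, made by software that was not given in the sources used here. On every array the mean left after trimming 2% at each end was 500, so each had been scaled as a whole. The number of arrays limits the precision.

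The array annotation gave 34958 probe sets 1 symbol, 932 several and 9211 none. The intensities were quantile normalized over the 22 arrays, floored at 16 and taken to log2. The 2 groups of an experiment were compared in limma 3.58.1 under R 4.3.3 (empirical Bayes with a trend, two-sided), on all probe sets, with Benjamini-Hochberg adjustment and calls at an adjusted p under 0.05. The difference between the Chd7 and ICRF-193 effects came from 1 fit of all 6 groups. The fits were tested on simulated data. Start regions were searched with Python 3.11.15 and plots drawn with matplotlib 3.10.9.

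To see whether label numbers pair the arrays, each array's deviation from its group mean was correlated between the groups of an experiment. Same-numbered arrays gave 0.31 to 0.35 in the Chd7 experiment and 0.28 to 0.41 in the ICRF-193 experiment. Replicate 1 against 2 or 3 against 4 gave much the same, 0.27 to 0.36 and 0.32 to 0.34, and other numbers -0.42 to -0.24. The arrays thus group by set, 1 and 2 against 3 and 4, and the check does not show pairing by number within a set. The main tests used no block, which leaves the difference between sets in their spread. In the Smo2 experiment same numbers correlated by 0.02 to 0.04 and do not pair. Of 231 pairs of arrays 0 were identical. Where nothing says that samples came from separate animals, p-values measure only the spread between these samples.

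The members, the lists and the tests were chosen with earlier results of these data known. All members are named; of the other lists, counts and at most 4 called genes with the largest change; and for each member the 3 genes with the highest Pearson r. Alternatives were other scalings, floors, filters, tests, thresholds and blocks (the replicate number, or the set 1 and 2 against 3 and 4), and leaving out each array.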

Additional observations from a re-analysis of the deposited data

Results flagged for a closer look

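In 3 of the 80 groups of 4 arrays that were examined, 1 array lay far from the other 3, and chance alone gives this in about 1 of 20 groups. Dpf1 on 1420530_at read 6.21 in ICRF-193 replicate 3, while the other treated arrays read 7.01 to 7.13. Dpf3 on 1441659_at read 6.75 in ICRF-193 replicate 4, while the others read 7.43 to 7.57. Smarca2 on 1430526_a_at read 11.38 in DMSO replicate 4, while the others read 11.96 to 12.06. None of these groups gave a call for the probe set concerned. Groups of 3 arrays were not examined in this way.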

How the results depend on the processing

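For Smo2, 7 to 12 member probe sets were called under the 20 alternatives, and the 7 genes named as called kept their direction; only Dpf3 lost its call, in the fit with the replicate block (adjusted p = 0.0537), where 9 probe sets were called. With 1 array left out, 9 to 10 were called. Median centring turned the split of all calls from 6342 higher and 7244 lower to 7736 and 5572, and the change of Dpf2 to 0.14.

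For the Chd7 mutant 1 member, Actl6b, was called under median centring, with a spread shared by all 6 groups, with the replicate block and with the set of replicates as a block, and 2 were called at an adjusted p under 0.1, Actl6b and Dpf1. When only the brightest probe sets of genes at or above the median level were tested, Actl6b gave an adjusted p of 0.0495 in limma. With ICRF-193 the call of Ss18 was lost, leaving 0, under median centring, a floor of 32, no trend, the methods' t-test, an adjusted p under 0.01, the replicate block, within replicates 1 and 2, within replicates 3 and 4, and whenever 1 array was left out (0 to 0). The Ss18 call was kept in 9 of 25 alternatives, among them the set of replicates as a block (adjusted p = 0.0325). For the difference of effects 1 was called at an adjusted p under 0.1 and 0 to 1 with an array left out, the 1 being without DMSO replicate 4. The cause was not tested.

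Small changes that were not called changed sign. Under median centring Actl6a became -0.032, Dpf2 -0.054, Ss18 -0.037 and Smarca4 -0.044 in the mutant and Smarca4 -0.035 with ICRF-193. Within replicates 1 and 2, Dpf2 was -0.063 and Smarca4 -0.11 in the mutant, and Actl6a -0.020, Phf10 0.020 and Dpf2 0.0084 with ICRF-193. Within replicates 3 and 4, Phf10 was 0.012 and Ss18l1 0.079 in the mutant, and Ss18l1 0.0098 with ICRF-193. With 1 array left out, Ss18l1 ranged from -0.076 to 0.040, Dpf2 from -0.0016 to 0.11 and Smarca4 from -0.042 to 0.15 in the mutant. With ICRF-193, Smarca4 ranged from -0.045 to 0.084, Actl6a from -0.030 to 0.13, Ss18l1 from -0.12 to 0.0039, Phf10 from -0.080 to 0.033 and Dpf2 from -0.10 to 0.019. With Smo2, Dpf2 ranged from -0.061 to 0.010.

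Over all probe sets, calls for the mutant numbered 1410, against 879 with the replicate block, 3256 with sets as a block, 2229 with a shared spread, 0 within replicates 1 and 2, 418 within replicates 3 and 4 and 708 to 917 with 1 array left out; median centring gave 462 higher and 868 lower in place of 747 and 663. With ICRF-193 they numbered 1003, against 521 under median centring, 2015 with a shared spread, 1743 with sets as a block, 0 within either set and 661 to 816 with 1 array left out. For the difference they numbered 1420, against 859 under median centring. An adjusted p under 0.01 left 335, 439 and 679 for these 3, and an adjusted p under 0.1 gave 2612 and 1532 for the mutant and ICRF-193. With 1 brightest probe set per gene fewer features were tested, and 937, 634, 911 and, for Smo2, 7315 were called. The replicate block changed no other call of a member.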
